A study of Mus musculus with 6 samples.

Results

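The chemokine ligands and receptors are 59 of the 53715 genes in the count table, taken as the protein-coding genes whose names follow the chemokine (Ccl, Cxcl, Xcl, Cx3cl) or chemokine receptor (Ccr, Cxcr, Xcr, Cx3cr, Ackr) nomenclature. They comprised 37 ligands (23 CC, 12 CXC, Cx3cl1 and Xcl1), 18 signalling receptors and 4 atypical receptors. Their transcripts were measured by bulk poly(A) RNA sequencing of the piriform cortex, the olfactory cortex of the ventral forebrain, in 6 libraries. All came from Gad2-Cre mice, whose Cre recombinase follows the expression of Gad2, an enzyme of GABA synthesis, so the Cre-dependent (DIO) cassettes delivered are meant to be active in such cells alone. In the 3 Caspase3 libraries the cortex of 1 side had received AAV-DIO-Caspase3, which encodes an executioner protease of apoptosis, and in the 3 GFP libraries AAV-DIO-GFP, which encodes a fluorescent protein. Both groups therefore carried the Cre allele and had undergone virus injection, and no uninjected tissue was compared. Age, sex, viral serotype, the side sampled and the time after injection are not given in the sources used here. Nor do the labels say that libraries of a group came from different animals, so the p-values describe the spread among these 6 libraries, part of which may be technical. The question of the comparison is how transcripts of this family differ where Cre-dependent caspase 3 in place of GFP was delivered to Gad2 cells, in a model used to study epilepsy.

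Chemokines are small secreted proteins, or in the case of Cx3cl1 and Cxcl16 membrane-anchored ones, that steer cells along concentration gradients. They are named CC, CXC, XC or CX3C by the spacing of their first cysteines and act through G protein-coupled receptors on leukocytes, glia and neurons, whereas atypical receptors bind and remove them without coupling to G proteins. In the healthy brain Cx3cl1 is made by neurons and its receptor Cx3cr1 by microglia, and Cxcl12 guides migrating neurons, while ligands such as Cxcl9, Cxcl10, Ccl5 and Ccl12 are inducible by interferons and inflammatory stimuli and draw T cells and monocytes.

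The stretches before the start sites of 4 ligands that were higher in the Caspase3 group are shown because the levels of these genes differed together and several of the ligands are known to be inducible through interferon-stimulated response elements and kappa B sites. They are the 250 bases upstream of the annotated start, 5′ to 3′ along the gene, from the RefSeq promoter table of GRCm38.p6: Cxcl10 at chr5:92348890-92349139 (minus strand), Cxcl9 at chr5:92328080-92328329 (minus strand), Cxcl13 at chr5:95956689-95956938 (plus strand) and Ccl12 at chr11:82101595-82101844 (plus strand). Capitals mark matches to GAAA and GAAA separated by any 2 bases, the core of the interferon-stimulated response element, or to GGGA and CC separated by any 4 bases, a kappa B-like pattern, on either strand.
Cxcl10: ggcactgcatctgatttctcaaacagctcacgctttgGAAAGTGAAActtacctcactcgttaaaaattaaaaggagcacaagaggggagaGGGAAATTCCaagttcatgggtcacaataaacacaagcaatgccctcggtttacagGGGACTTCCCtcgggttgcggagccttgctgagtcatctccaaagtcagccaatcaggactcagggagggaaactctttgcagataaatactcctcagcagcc
Cxcl9: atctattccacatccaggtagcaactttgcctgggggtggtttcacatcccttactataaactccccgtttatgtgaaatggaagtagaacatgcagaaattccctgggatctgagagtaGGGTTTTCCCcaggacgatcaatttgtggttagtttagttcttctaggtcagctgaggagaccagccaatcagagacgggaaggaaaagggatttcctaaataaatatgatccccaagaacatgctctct
Cxcl13: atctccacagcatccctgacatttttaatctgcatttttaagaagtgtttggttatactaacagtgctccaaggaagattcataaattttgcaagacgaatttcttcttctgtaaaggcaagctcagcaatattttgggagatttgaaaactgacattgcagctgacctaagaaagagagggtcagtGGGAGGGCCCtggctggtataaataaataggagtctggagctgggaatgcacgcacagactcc
Ccl12: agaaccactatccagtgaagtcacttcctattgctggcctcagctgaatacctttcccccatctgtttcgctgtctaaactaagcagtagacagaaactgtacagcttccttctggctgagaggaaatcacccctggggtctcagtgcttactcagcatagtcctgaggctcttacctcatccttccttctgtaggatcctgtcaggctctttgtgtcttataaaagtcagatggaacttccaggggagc
Cxcl10 held the response element core GAAAGTGAAA at bases 213 to 204 before its start and a pair of kappa B-like matches, GGGAAATTCC at bases 159 to 150 and GGGACTTCCC at bases 103 to 94. Cxcl9 held GGGTTTTCCC, a match on the opposite strand, at bases 130 to 121, and Cxcl13 held GGGAGGGCCC at bases 63 to 54. The Ccl12 stretch held neither pattern. No match of 1 pattern overlapped a match of the other in these 4 stretches. Over the 32536 promoters in the table, 2.98% held the response element core and 17.7% the kappa B-like pattern. The table held 52 promoters for 45 of the 59 genes, of which 3 held the response element core (those of Cxcl10, Cxcl14 and Ccl19) and 20 the kappa B-like pattern. Another pattern, the gamma-activated sequence TTCNNNGAA, was found in 7.04% of all promoters, in 3 of the 52 (Cxcl14, Ccl17 and Ccr6) and in none of the 5 belonging to genes called higher, which include Cx3cr1. These matches describe letters only, and binding was not measured.

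Library totals were 20424581 to 24227361 counts in the Caspase3 group and 22101015 to 26268377 in the GFP group, which makes 3 counts equal to 0.118 to 0.142 CPM (each count divided by its TMM-adjusted library total). Gad2, the gene that drives Cre, was lower in the Caspase3 libraries, at 26.7, 38.5 and 38.0 CPM against 92.3, 117.9 and 103.5 CPM (adjusted p = 0.00371). A gene was called where edgeR's quasi-likelihood test gave a Benjamini-Hochberg adjusted p under 0.05 over the 16721 genes that passed a filter on low counts, and 274 (1.64%) were. Markers of striatal projection neurons were highest in GFP replicate 3, at a summed 667.0 CPM against 134.5 to 199.6 CPM in the other 5 libraries. Calls over all genes leaned on GFP replicate 2, without which 15 genes were higher and 2 lower. In tissue of mixed cells, fewer cells of a type and less RNA per cell cannot be told apart.

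Ligands of T cell, B cell and monocyte receptors were higher in the Caspase3 group, together with the microglial receptor Cx3cr1, and no chemokine or receptor was called lower. Of the 59 genes, 7 had no count in any library, 28 had counts below the filter and 24 were tested. Among the 24, 8 were called higher, 0 lower (also 0 with DESeq2 and limma-voom, and 0 with an unadjusted p under 0.05), and 16 did not pass. Over all tested genes 1.53% were called higher and 0.114% lower. An unadjusted p under 0.05 with a higher Caspase3 level was found for 10 of the 24, against 6.72% of all tested genes, and none was lower at that level, against 3.91%. In 10 of the 24, all Caspase3 libraries lay above all GFP libraries, against 8.96% of all tested genes, and in none did they lie below, against 6.29%. The filter bears on these counts. Of the 24 tested genes, 15 met its minimum of 0.443 CPM in every GFP library, and 9 (Ccl12, Cxcl5, Cxcl10, Ccl5, Cxcl9, Cxcl13, Ccr1, Ccr2 and Ccr9) met it in all 3 Caspase3 libraries but not in all GFP libraries. For 5 of these, Ccl12, Cxcl10, Ccl5, Cxcl9 and Cxcl13, no GFP library met it, so they were tested only because of their Caspase3 level. Of the 8 calls, these 5 belong to the latter and 3, among them Cxcl16 and Cx3cr1, to the former. The median log2 fold change was 0.69 over the 15 tested ligands and 0.79 over the 9 tested receptors, atypical ones included, beside -0.00 over all tested genes. The filter bears on these medians too, since they include the 9 genes that did not meet its minimum in every GFP library. They therefore do not show a shift of the whole family. Of the tested ligands that met the minimum in every GFP library, Cxcl16, Ccl9 and Ccl6 had positive values. Cx3cl1, Cxcl14, Cxcl12, Ccl27a, Ccl28 and Ccl25 had negative ones. Cxcl13, which had no GFP count, lies above the ligand median both as fitted and at its lower bound. Using the bound therefore cannot move that median.

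**Figure D1:**
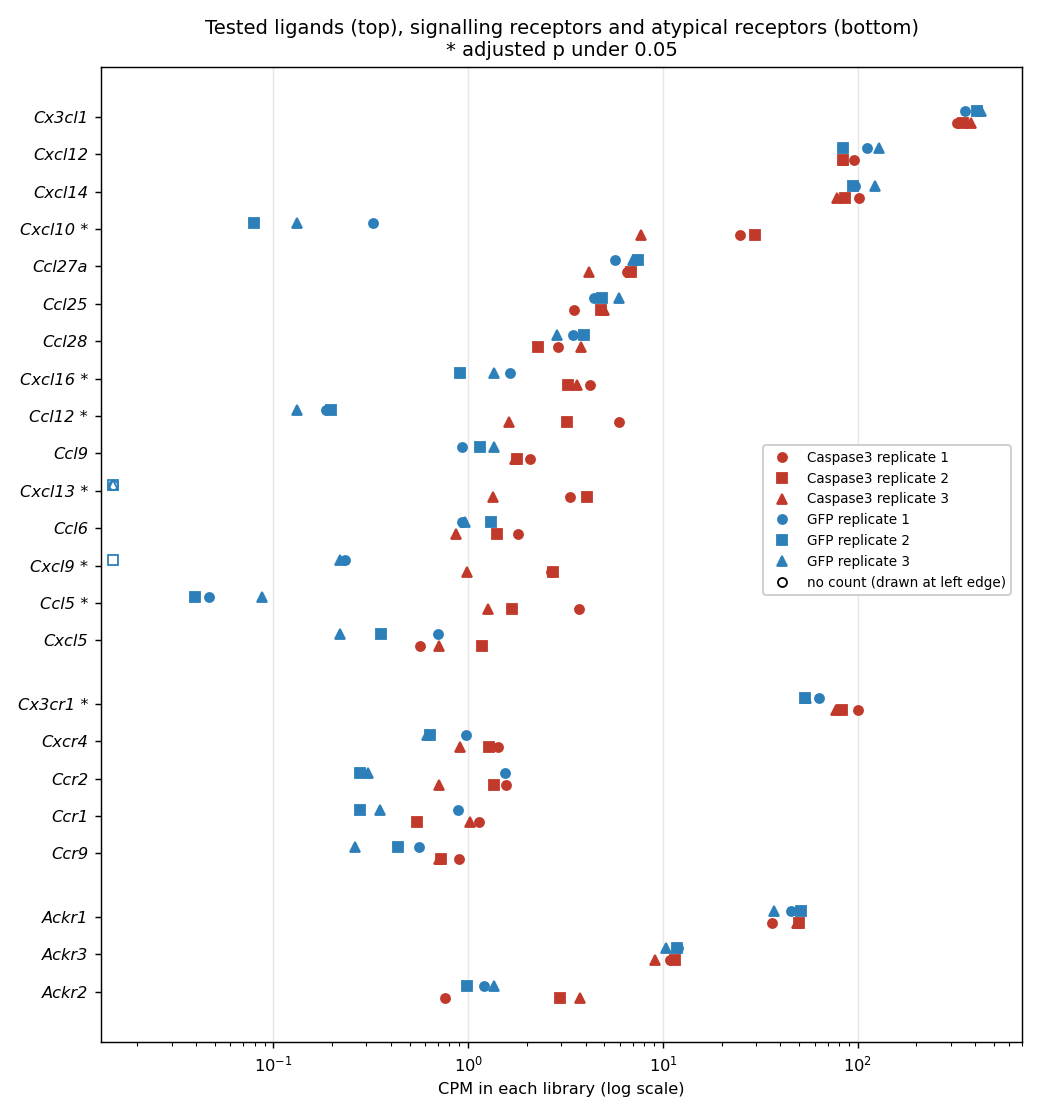
CPM of 23 tested chemokine ligands and receptors in each library (log axis), with Caspase3 libraries in red, GFP libraries in blue, the symbol giving the replicate and open symbols at the left edge no count. Cxcl10, at 7.72 to 29.8 CPM against 0.0791 to 0.326 CPM, is the widest separation drawn between libraries that all hold counts, and Cx3cl1, Cxcl12 and Cxcl14 overlap at the right.

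**Figure D2:**
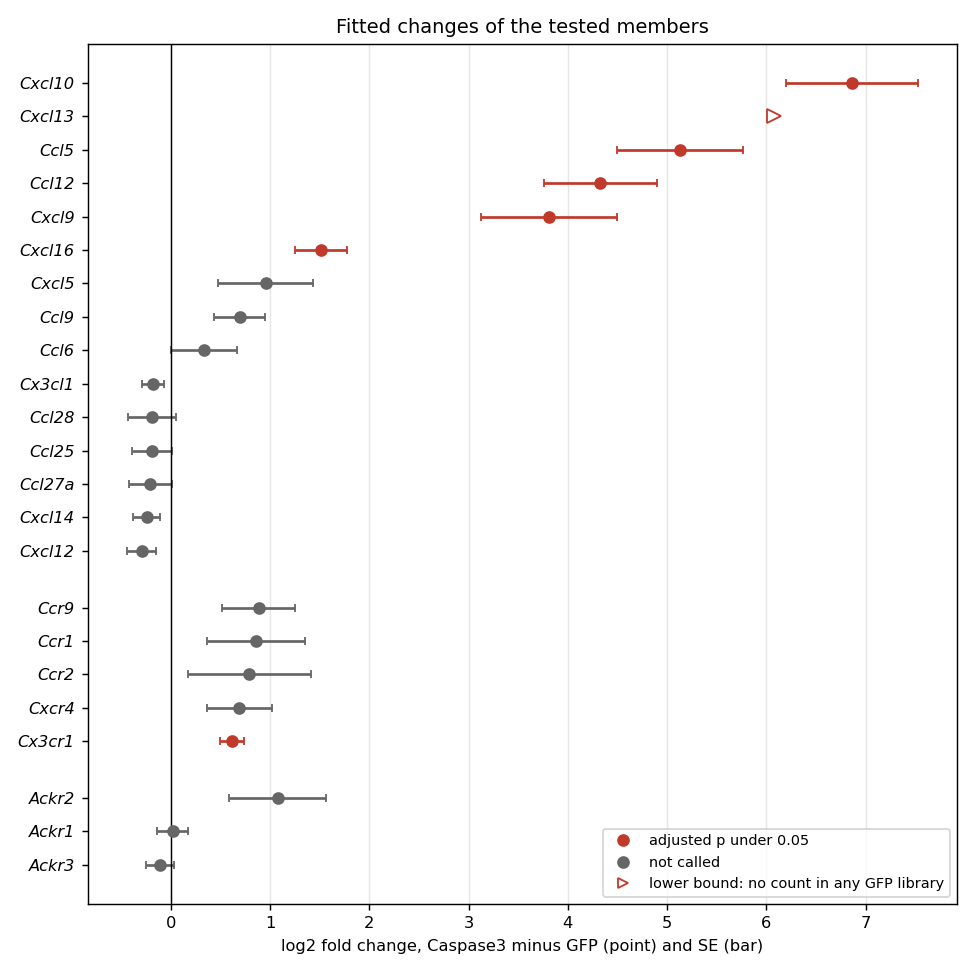
Log2 fold change, Caspase3 minus GFP, of 23 tested genes (points, red where called) with its standard error (bars), ligands at the top, then signalling and atypical receptors. Cxcl13 is drawn as an arrowhead at its lower bound, since no GFP library held a count. The 6 called ligands lie at 1.51 or above and Cx3cr1 at 0.61.

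Among the CXC ligands, Cxcl10 and Cxcl9, which both attract activated T cells through Cxcr3, were higher. Cxcl10 (ENSMUSG00000034855, chr5:92346638-92348889, minus strand, GRCm38) stood at 24.9, 29.8 and 7.72 CPM in Caspase3 replicates 1, 2 and 3 and at 0.326, 0.0791 and 0.132 CPM in the GFP replicates, from 527, 655 and 196 counts against 7, 2 and 3. The lowest Caspase3 library was far above the highest GFP library, and replicate 3 was the low one of its group. The mean was 20.8 ± 11.6 CPM (SD, n = 3) against 0.179 ± 0.13 CPM, a 116-fold difference (log2 fold change 6.86 ± 0.66, SE, adjusted p = 0.00371). An exon of Cxcl10 shares 133 bases with an exon of Art3 on the opposite strand, and whether the counting used strand is not given. Art3 held 65 to 80 counts in every library, with groups that overlapped. The adjusted p was 0.0502 without GFP replicate 2 and 0.0684 with limma-voom.

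Cxcl9 (ENSMUSG00000029417, chr5:92321347-92328079, minus strand), which lies beside Cxcl10, was lower in level but followed the same order of libraries. It stood at 2.65, 2.73 and 0.985 CPM against 0.233, 0 and 0.219 CPM, from 56, 60 and 25 counts against 5, 0 and 5. All Caspase3 libraries were above all GFP libraries, and replicate 3 was again the low one. The difference was 14.1-fold (2.12 ± 0.984 against 0.151 ± 0.131 CPM, SD, n = 3, log2 fold change 3.81 ± 0.69, adjusted p = 0.0293). Leaving out any library other than Caspase3 replicate 3 took the adjusted p above the threshold, to at most 0.0905. The call was also lost with limma-voom (adjusted p = 0.0805) and with limma on log2(FPKM + 1) (0.0786).

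Cxcl13 (ENSMUSG00000023078, chr5:95956951-95961068, plus strand), the B cell attractant that acts through Cxcr5, was found in the Caspase3 libraries and in none of the GFP libraries. It held 70, 90 and 34 counts, or 3.31, 4.09 and 1.34 CPM, against 0, 0 and 0. Replicate 2 was highest and replicate 3 lowest. Against a floor of 3 counts over the whole GFP group (0.0431 CPM), it was at least 67.6-fold higher (adjusted p = 0.00768). The adjusted p was 0.0562 without GFP replicate 2.

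Cxcl16 (ENSMUSG00000018920, chr11:70453983-70459984, minus strand), a membrane-anchored ligand of Cxcr6 that is also shed, was present in both groups and rose less. Its levels were 4.21, 3.27 and 3.62 CPM against 1.63, 0.910 and 1.36 CPM. The groups did not overlap, and the Caspase3 libraries were close to each other, with replicate 2 the lowest. The difference was 2.85-fold (3.70 ± 0.476 against 1.30 ± 0.363 CPM, SD, n = 3, log2 fold change 1.51 ± 0.26, adjusted p = 0.0233). An exon of Cxcl16 overlaps an exon of Zmynd15 on the opposite strand by 552 bases, and Zmynd15 held 12, 4 and 9 counts against 1, 3 and 6, beside 89, 72 and 92 against 35, 23 and 31 for Cxcl16. The adjusted p was above the threshold, at up to 0.0986, without Caspase3 replicate 1 or 3 or without GFP replicate 2 or 3.

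The remaining CXC ligands did not pass. Cxcl14, which inhibitory neurons of the cortex are known to express, stood at 101.6, 86.4 and 78.1 CPM against 96.8, 94.9 and 123.1 CPM (log2 fold change -0.24 ± 0.13, adjusted p = 0.581). Cxcl12 stood at 96.1, 83.8 and 83.9 CPM against 110.9, 84.1 and 128.3 CPM (-0.29 ± 0.15, 0.540). In both, the highest library was GFP replicate 3 and the groups overlapped. Among ligands of the neutrophil receptors, Cxcl5 overlapped at 0.568, 1.18 and 0.709 CPM against 0.698, 0.356 and 0.219 CPM (0.95 ± 0.48, 0.539). The others of that kind were scarcely detected, with 10 counts in the Caspase3 group against 7 for Cxcl1, 3 against 0 for Cxcl2 and none for Cxcl3 or Cxcl15.

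Of the CC ligands, Ccl5 and Ccl12 were higher. Ccl5 (ENSMUSG00000035042, chr11:83525778-83530518, minus strand), also called RANTES, binds Ccr1 and Ccr3 among other receptors and is made by activated T cells as well as glia. It held 78, 37 and 32 counts against 1, 1 and 2, or 3.69, 1.68 and 1.26 CPM against 0.0465, 0.0395 and 0.0877 CPM. Replicate 1 was the highest Caspase3 library, and the GFP libraries were all below the level of 3 counts. The difference was 38.2-fold (2.21 ± 1.30 against 0.0579 ± 0.026 CPM, SD, n = 3, log2 fold change 5.13 ± 0.64, adjusted p = 0.00569, and 0.0585 without GFP replicate 2).

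Ccl12 (ENSMUSG00000035352, chr11:82101845-82103400, plus strand), a monocyte attractant of the mouse that acts through Ccr2, held 125, 71 and 41 counts against 4, 5 and 3. In CPM this was 5.92, 3.22 and 1.62 against 0.186, 0.198 and 0.132. Its Caspase3 libraries fell in the same order as those of Ccl5, from replicate 1 to 2 to 3, and lay above every GFP library. The difference was 20.9-fold (3.59 ± 2.17 against 0.172 ± 0.0353 CPM, SD, n = 3, log2 fold change 4.33 ± 0.57, adjusted p = 0.00685, and 0.0645 without GFP replicate 2).

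Ccl9, a ligand of Ccr1 that myeloid cells make, stood at 2.08, 1.77 and 1.73 CPM against 0.931, 1.15 and 1.36 CPM. Its groups did not overlap, but it did not pass (log2 fold change 0.69 ± 0.26, adjusted p = 0.352). Its neighbour Ccl6, at 1.80, 1.41 and 0.867 CPM against 0.931, 1.31 and 0.965 CPM, overlapped (0.33 ± 0.33, 0.781). The tissue-resident ligands Ccl27a, Ccl25 and Ccl28, best known from skin, thymus and mucosa, also overlapped, each slightly lower in the Caspase3 group (log2 fold changes -0.21, -0.19 and -0.19, adjusted p = 0.790, 0.789 and 0.833).

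Cx3cl1 (ENSMUSG00000031778, chr8:94772009-94782427, plus strand), the neuronal ligand of Cx3cr1, was the most abundant chemokine transcript per length in every library. Its CPM was 322.4, 346.9 and 380.3 against 355.0, 408.0 and 426.7. GFP replicate 1 lay below Caspase3 replicate 3, so the groups overlapped, and it did not pass (log2 fold change -0.18 ± 0.11, adjusted p = 0.632).

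Compared per length, by the deposited FPKM values, the makeup of the ligand transcripts shifted while 3 ligands remained the bulk. Cx3cl1, Cxcl14 and Cxcl12 together made up 95.4%, 95.3% and 94.9% of the summed ligand FPKM in the GFP libraries and 78.3%, 80.1% and 89.1% in the Caspase3 libraries. The 6 called ligands made up 0.703%, 0.428% and 0.454% against 16.3%, 14.6% and 6.21%. The groups did not overlap in either share, and Caspase3 replicate 3 lay nearest to the GFP libraries. The 6 ligands were picked as higher in these same libraries, so their larger share follows from that choice. The share of the other 3 falls as theirs rises, so neither share adds support to the calls. Summed ligand CPM overlapped, at 585.7, 583.1 and 577.6 in the Caspase3 libraries against 582.4, 608.2 and 700.8 in the GFP libraries. Cxcl10 was at 10.9, 13.2 and 3.40 FPKM in the Caspase3 libraries, beside 11.6, 10.2 and 10.2 FPKM for Cxcl12 in the same libraries. Cxcl10 thus exceeded Cxcl12 in Caspase3 replicate 2, was within 1 FPKM of it in replicate 1 and was lower in replicate 3. Ccl12 followed at 10.8, 6.0 and 2.98 FPKM, while Cxcl13, Ccl5, Cxcl16 and Cxcl9 averaged 2.51, 2.28, 1.21 and 0.697 FPKM.

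Of 6 tested signalling receptors, all had positive values and 2 were called, among them Cx3cr1. Ccr1, Ccr2 and Ccr9 met the filter's minimum in every Caspase3 library but not in every GFP library, which favours a positive value. Over all 16721 tested genes, 8321 had positive values and 1.53% were called higher. Cx3cr1 (ENSMUSG00000052336, chr9:119901616-120069879, minus strand), which in the brain marks microglia and border macrophages, stood at 100.7, 82.9 and 77.4 CPM against 63.2, 53.5 and 54.0 CPM. The groups did not overlap, and the highest of each was replicate 1. The rise was 1.53-fold (87.0 ± 12.2 against 56.9 ± 5.46 CPM, SD, n = 3, log2 fold change 0.61 ± 0.12, adjusted p = 0.0425). This call did not survive leaving out any 1 of the 6 libraries (adjusted p = 0.0525 to 0.211), nor limma-voom (0.0530).

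Some markers of microglia, which carry Cx3cr1, were higher too. Of 9 microglia markers, 3 were called higher, among them Csf1r and Aif1, beside 1.53% of all tested genes. All 9 had positive values, as had 8321 of all 16721 tested genes. Their summed level was 1190, 983 and 920 CPM against 835, 799 and 811 CPM. In 4 of the 9, all Caspase3 libraries lay above all GFP libraries, against 8.96% of all tested genes. The groups overlapped in the rest, among them P2ry12, Gpr34, Fcrls and Cst3. P2ry12, a receptor of resting microglia, had a log2 fold change of 0.17 (adjusted p = 0.588). Of 5 tested border macrophage markers none was called, all had positive values, and the summed level of the list overlapped at 92.7, 42.5 and 62.0 CPM against 45.7, 22.3 and 34.3 CPM. The part of cell numbers in the level of Cx3cr1 was not tested.

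The other signalling receptors tested were low and did not pass. Ccr2, the receptor of Ccl2, Ccl7 and Ccl12 on inflammatory monocytes, stood at 1.56, 1.36 and 0.709 CPM against 1.54, 0.277 and 0.307 CPM (log2 fold change 0.79 ± 0.62, adjusted p = 0.721). GFP replicate 1 was close to the highest Caspase3 library, and the other GFP replicates were below every Caspase3 library. Ccr1, a further receptor of Ccl5, showed the same raised GFP replicate 1, at 0.884 CPM beside 0.277 and 0.351 CPM, against 1.14, 0.545 and 1.02 CPM in the Caspase3 group (0.86 ± 0.49, 0.596). Cxcr4, the receptor of Cxcl12, overlapped at 1.42, 1.27 and 0.906 CPM against 0.977, 0.633 and 0.614 CPM (0.69 ± 0.33, 0.505). In Ccr9, the receptor of Ccl25, the groups did not overlap, at 0.899, 0.727 and 0.709 CPM against 0.559, 0.435 and 0.263 CPM, but it did not pass (0.89 ± 0.37, 0.434). Its exons overlap those of 3 other genes, so its few counts are uncertain. GFP replicate 1 was the highest GFP library for 12 of the 24 tested genes, among them Cxcl10, Cxcl16 and Cx3cr1, and for 5269 of all 16721 tested genes.

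The atypical receptors did not pass either. Ackr1, which stands on the endothelium of venules and carries both CC and CXC ligands, was the most abundant chemokine receptor transcript per length, at a mean of 31.8 FPKM in the Caspase3 group and 31.7 FPKM in the GFP group. Its CPM was 36.4, 49.6 and 49.0 against 45.6, 50.8 and 37.0 (log2 fold change 0.02 ± 0.15, adjusted p = 0.983). An exon shares 284 bases with Cadm3 on the same strand, a gene with 86220 counts over all libraries against 6212, so the level of Ackr1 is uncertain. Ackr3, which takes up Cxcl12, was at 10.8, 11.6 and 9.14 CPM against 11.9, 11.7 and 10.4 CPM (-0.11 ± 0.14, 0.832). Ackr2, which clears inflammatory CC ligands, differed between the Caspase3 libraries, at 0.757, 2.95 and 3.74 CPM against 1.21, 0.989 and 1.36 CPM in the GFP group (1.08 ± 0.49, 0.487). Replicate 1, the highest Caspase3 library for Ccl5 and Ccl12, was the lowest of all 6 libraries for Ackr2, and without it Ackr2 was called (log2 fold change 1.5, adjusted p = 0.0279).

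Among the 28 genes below the filter, several ligands and receptors had most of their counts in the Caspase3 libraries. The largest of these was Cxcr6, the receptor of Cxcl16 on effector T cells, with 23, 34 and 8 counts against 6, 1 and 1, an 8.13-fold difference in mean CPM. Cxcr3, the receptor of Cxcl9 and Cxcl10, held 7, 11 and 8 counts against 1, 0 and 0, a ratio of 26.4 with an exact 95% interval for counting error of 4.34 to 1082. In Cxcr3 every Caspase3 library was above every GFP library, while in Cxcr6 the lowest Caspase3 library, replicate 3, was close to GFP replicate 1. The monocyte attractants of the Ccl2 group were alike in having a low replicate 3: Ccl2 held 13, 17 and 2 counts against 1, 1 and 0 (ratio 16.2, interval 4.14 to 139.9) and Ccl7 held 13, 16 and 6 against 4, 1 and 2 (5.04-fold). Ccl8 held 10, 4 and 4 counts against 1, 2 and 1 (4.79-fold). The macrophage inflammatory proteins Ccl3 and Ccl4 had another order of libraries, Ccl3 standing at 6, 3 and 15 counts against 0, 1 and 0 (ratio 24.4, interval 3.97 to 1002) and Ccl4 at 0, 8 and 7 counts against 0, 0 and 0 (at least 4.94-fold higher against 3 counts over the GFP group). With no filter on low counts, edgeR called Cxcr6, Cxcr3, Ccl2, Ccl7, Ccl3 and Ccl4 higher (adjusted p = 0.000223 to 0.046), in a fit that called 663 genes higher in place of 255. DESeq2 called Cxcr6 of these (adjusted p = 0.0224).

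**Figure D3:**
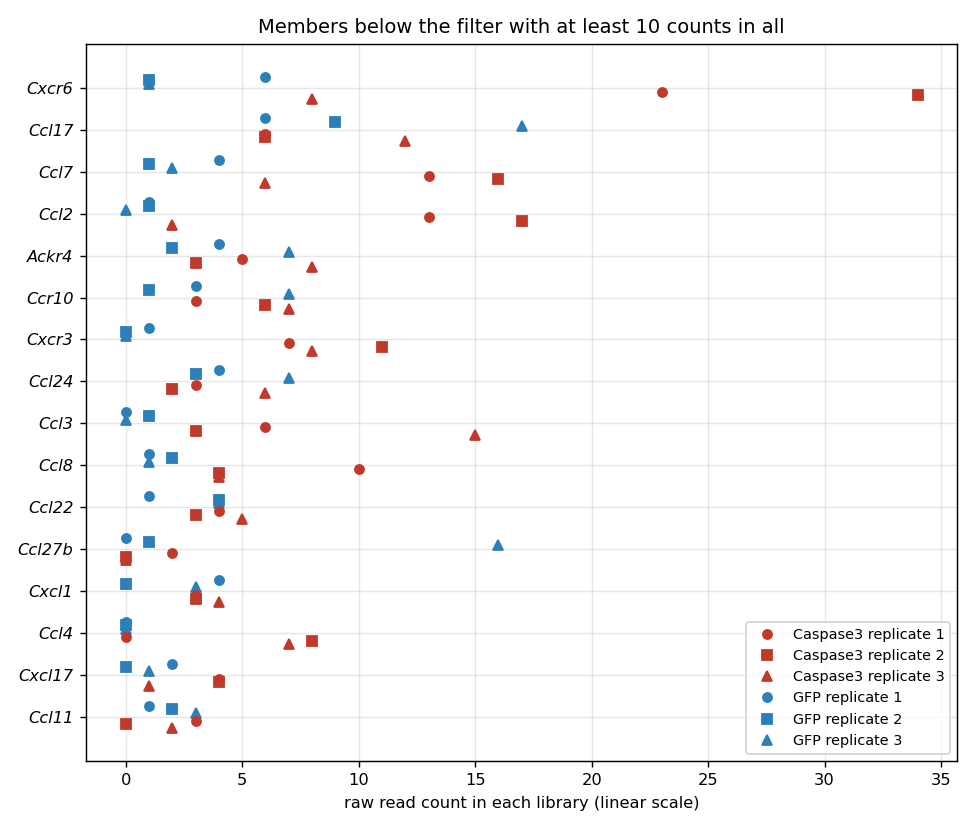
Raw read counts in each library (linear axis) of the chemokine ligands and receptors that were below the filter but held at least 10 counts in all, with Caspase3 libraries in red and GFP libraries in blue. Cxcr6 reaches 34 counts in Caspase3 replicate 2 and Ccl3 15 in replicate 3, whereas Ccl17, Ccl24, Ackr4 and Ccr10 mix both colours.

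Most other genes below the filter overlapped between the groups. Ccl17 and Ccl22, ligands of Ccr4, held 6, 6 and 12 against 6, 9 and 17 counts and 4, 3 and 5 against 1, 4 and 4. Ccl24, Ccl11, Ccr10 and Ackr4 overlapped likewise at 0 to 8 counts a library. Ccl27b held 16 of its 19 counts in GFP replicate 3. Receptors of lymph node homing and of B cells were at or near 0: Ccr7 held 2 counts in 1 library of each group, Cxcr5 held 0, 2 and 1 against 0, 0 and 1, and Ccr6 held 0, 0 and 0 against 0, 1 and 3. Ccl19, Ccl21a, Ccl26, Cxcl3, Cxcl15, Ccr4 and Cxcr2 had no count in any library. Cxcl17 held 4, 4 and 1 counts against 2, 0 and 1, Ccl21b none against 1, 2 and 1, so that its few counts were all in the GFP group, and Xcr1, Xcl1, Ccr3, Cxcl2, Cxcr1, Ccl1, Ccr8 and Ccl20 at most 4 counts each in total.

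Set out as ligand and receptor pairs, 40 known pairs had both genes among the chemokine ligands and receptors, and in 9 of them both were tested. In 2 pairs, Ccl5 with Ccr1 and Ccl12 with Ccr2, the ligand was called and the receptor was tested but not called. In 5 pairs the receptor of a called ligand was below the filter: Cxcl9 and Cxcl10 with Cxcr3, Cxcl16 with Cxcr6, Cxcl13 with Cxcr5 and Ccl5 with Ccr3. The receptors in these 5 pairs differed from each other. Cxcr6 and Cxcr3 reached means of 0.505 and 0.219 FPKM in the Caspase3 group against 0.0626 and 0.00895 FPKM, whereas Cxcr5 was at 0.013 against 0.00437 FPKM, with 4 counts in all, beside 2.51 FPKM for its ligand Cxcl13. An exon of Cxcr5 overlaps Bcl9l on the opposite strand, so even these counts are uncertain. For Cx3cr1 and Cx3cl1 the receptor was called and the ligand was not. Most pairs share a gene with another pair and are not independent.

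Several of these genes lie side by side in the genome, and neighbours did not all share a level. The chromosome 11 ligand cluster (82035571 to 83664683) holds 11 CC ligands, of which 4 were tested and 2, Ccl12 and Ccl5, called. Ccl12 at 1.62 to 5.92 CPM in the Caspase3 group is flanked by Ccl11, at 3 counts or fewer in every library, and Ccl8. On chromosome 5, Cxcl9 and Cxcl10 lie within 28 kb (92321347 to 92348889) and both were called. The Cxcl5, Cxcl3, Cxcl15, Cxcl1 and Cxcl2 cluster on the same chromosome (90759360 to 90905938) held 1 tested gene and no call. On chromosome 9, Ccr9, Cxcr6, Xcr1, Ccr1, Ccr3 and Ccr2 lie in a row, of which Ccr9, Ccr1 and Ccr2 were tested and not called. Near-identical copies such as Ccl21a with Ccl21b and Ccl27a with Ccl27b may divide their reads.

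**Figure D4:**
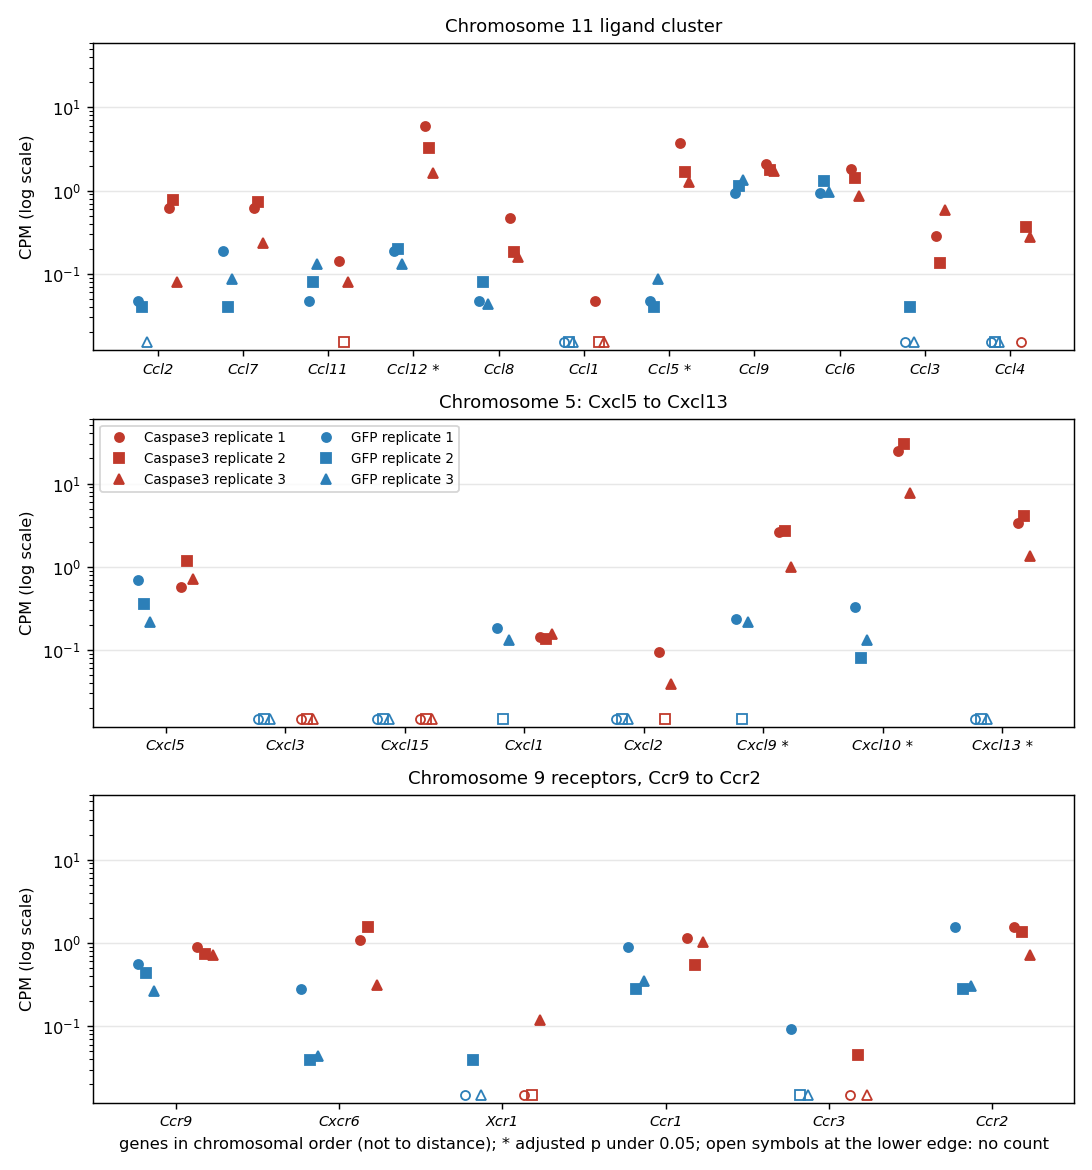
CPM in each library (log axis) of chemokine ligands and receptors in chromosomal order, evenly spaced, for the chromosome 11 ligands, the chromosome 5 CXC ligands and 6 chromosome 9 receptors, with Caspase3 libraries in red, GFP libraries in blue and open symbols at the lower edge for no count. Red lies clear of blue at the called Ccl12, Ccl5, Cxcl9, Cxcl10 and Cxcl13. It also lies above blue at Ccl2, Ccl3, Ccl7, Ccl8, Ccl9, Ccr9 and Cxcr6, which were not called or not tested. Ccl6, Ccl11, Cxcl5 and Ccr2 are among those that overlap.

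The 8 called genes ordered the Caspase3 libraries in different ways. Replicate 3 was the lowest for 7 of them and replicate 2 for Cxcl16. Replicate 1 was the highest for 5, among them Ccl5, Ccl12, Cxcl16 and Cx3cr1, and replicate 2 for Cxcl9, Cxcl10 and Cxcl13. Among all 255 genes called higher, replicate 1 was the highest for 229, replicate 2 for 19 and replicate 3 for 7, and replicate 3 was the lowest for 186. Whether the chemokine genes differ from the other calls in this order was not tested.

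Of the genes that relay signals to chemokine promoters, several transcription factors of the interferon pathway were higher, among them Irf7, Irf9 and Stat2, while Irf3 did not pass. In a list of 28 inducers, their receptors and transcription factors, 22 were tested, with a median log2 fold change of 0.64. Of these, 6 were called higher and 0 lower (0 also with DESeq2, limma-voom and an unadjusted p under 0.05), and 21 had positive values. Among all 16721 tested genes, 1.53% were called higher and 0.114% lower, and 8321 had positive values. Irf7, which drives type I interferon genes, stood at 48.2, 25.6 and 13.9 CPM against 1.95, 1.46 and 1.67 CPM (log2 fold change 4.11 ± 0.44, adjusted p = 0.00405). Its order of the Caspase3 libraries was that of Ccl5 and Ccl12, which is not particular to them. Of all 255 genes called higher, replicate 1 was the highest for 229 and replicate 3 the lowest for 186. Irf9 and Stat2, which act together in the type I interferon response, rose as well (log2 fold changes 2.28 and 1.39, adjusted p = 0.00569 and 0.00621), and Irf8 and Irf1 were called too. Irf3 overlapped between the groups (0.52 ± 0.19, 0.355). The kappa B subunits Nfkb1 and Rela did not pass (log2 fold changes 0.37 and 0.34, adjusted p = 0.494 and 0.463). Ifng, the inducer for which Cxcl9 is best known, and Il10 had no count in any library, Ifnb1 had 1, Tnf held 2, 4 and 0 against none, and Il6 held 2, 8 and 1 against none. Il1b held 9, 8 and 3 counts against 7, 4 and 4. Il1a was tested at 36, 21 and 11 counts against 7, 10 and 5 and did not pass, although its groups did not overlap (log2 fold change 1.67 ± 0.54, adjusted p = 0.271). None of the 6 passed without GFP replicate 2.

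Downstream of the receptors, 3 genes were called. Of 43 tested genes in a list of 44 for chemokine receptor signalling, 3 were called higher and 0 lower, where 1.53% and 0.114% of all tested genes were. At an unadjusted p under 0.05, 16 were higher and 0 lower, against 6.72% and 3.91% of all tested genes. In 17 the Caspase3 libraries all lay above the GFP libraries and in 1 all below, against 8.96% and 6.29% of all tested genes. In the list 27 genes had positive and 16 negative values, with a median log2 fold change of 0.14. The 3 were Ncf1, an oxidase subunit of phagocytes, at 14.5, 13.3 and 11.3 CPM against 6.52, 4.90 and 6.27 CPM (adjusted p = 0.00956), the kinase Lyn (log2 fold change 1.03, adjusted p = 0.0358) and Dock2, which activates Rac in migrating leukocytes (1.17, 0.0460). All 3 are known from leukocytes and microglia. The list gave 7 calls with the replicate number as a block and 9 with DESeq2. It gave 1 without Caspase3 replicate 1, 1 without GFP replicate 3 and 0 without GFP replicate 2. Of 21 tested genes for the processing and presentation of chemokines, such as sheddases and syndecans, none was called with edgeR, although 18 had positive values and 7 were higher at an unadjusted p under 0.05. DESeq2 called 1 and edgeR with no filter 3. The most abundant of the list, Adam10, which sheds Cx3cl1 and Cxcl16 from the membrane, had a log2 fold change of 0.11 (adjusted p = 0.744).

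Markers of the cells that these ligands attract were examined beside them. Of 15 T and NK cell markers, 6 were tested and 3 called higher, Cd3e, Cd8a and Cd8b1, beside 1.53% of all tested genes. All 3 were below the filter's minimum in every GFP library and so were tested only because of their Caspase3 level, and none was called without GFP replicate 2. The summed level of the list was 13.5, 9.63 and 5.83 CPM against 2.51, 1.23 and 5.44 CPM, the last through Cd4, which held 94 counts in GFP replicate 3. Cd3d, Prf1 and Ncr1 were at 0 in all GFP libraries. Cd8a stood at 44, 46 and 29 counts against 9, 4 and 2. The order of the Caspase3 libraries in the summed level was that of Ccl5 and Ccl12. Replicate 1 was also the highest for 229 of the 255 genes called higher, and replicate 3 the lowest for 186. Of 5 monocyte markers 3 were tested, and Ms4a4c, which is also interferon-inducible, was called with 61, 59 and 19 counts against 0, 1 and 0, the same limit applying to it. Ly6c2 held 18, 20 and 4 counts against 1, 0 and 1, the order of Ccl2 and Ccl7. The summed monocyte level, most of it Fn1, which vascular and stromal cells make too, overlapped at 109.9 to 206.6 CPM against 83.7 to 140.2 CPM. The part of these cells in the levels of the ligands was not tested.

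B cell and neutrophil markers were at the limit of detection. None of 6 B and plasma cell markers was tested, their summed level was 0.363 to 0.615 CPM against 0.316 to 0.570 CPM, 1 of them was at 0 in every library and Ms4a1 had 2 counts in all. Cxcl13 was thus detected in libraries with next to no B cell transcripts. None of 7 neutrophil markers was tested either, their summed level was 0 to 0.158 CPM against 0 to 0.175 CPM, and Ly6g was at 0 in every library, as was Cxcr2. Counts of 0 to 3 in a library of this depth do not show that a transcript was absent.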

How the data were processed

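Poly(A) RNA libraries of the piriform cortex, 3 Caspase3 and 3 GFP, were assigned to groups by the sample titles. TRIzol extraction and a kit that marks the second cDNA strand were used, per the labels' protocols. The submitters' processing notes name HISAT2, featureCounts, DESeq2 and the builds mm10 and GRCm38, with no roles or versions; how strand was treated is not stated in these sources. The table the authors deposited held whole-number read counts per gene, per the file headers. The deposited FPKM table held FPKM values, which in each library were proportional to the count divided by gene length. Of the 59 genes, 58 had identical coordinates in GENCODE M21, from which exon overlaps were taken.

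Counts were tested with the quasi-likelihood functions of edgeR 4.0.16 (R 4.3.3) after filterByExpr and TMM scaling, over all 6 libraries with group as the sole term, with Benjamini-Hochberg adjustment over 16721 genes and a threshold of 0.05. The SE is the absolute log2 fold change divided by the square root of F. Where a group held no count, a floor of 3 counts over that group was used, and with 1 to 3 counts an exact 95% interval, which both cover counting error only. The chemokine genes, the pathway and marker lists and the pairs were chosen with earlier results of these data known. Within each other list, up to 4 called genes with the smallest adjusted p, or else the most abundant tested gene, were to be named, and further genes were named after their values were seen. Some genes that these rules name are not reported here, although the counts include them. Counts were also simulated for the 16721 genes of this comparison, with known changes set in 200 of them. Recovery was 25.4% at a 1.5-fold change, 61.2% at 2-fold and 89.4% at 4-fold, and 8.59% of calls were false. The simulated noise was drawn for each gene separately. Shifts that many genes share within a library, as in these data, are therefore not covered by these rates. Replicates differed by more than counting noise (mean chi-square per gene 12.6 to 33.1).

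As alternatives, edgeR was run with upper-quartile factors, DESeq2 size factors or plain library totals, beside DESeq2 1.42.0, limma 3.58.1 (voom, and log2 of FPKM plus 0.1 or 1), no filter or at least 1 CPM in 3 libraries, a block for the sample number, and the omission of each library in turn. Omission of both Caspase3 replicate 1 and GFP replicate 3 was added after seeing the data. Promoters came from RefSeq (GRCm38.p6), and figures were drawn with Matplotlib 3.10.9.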

Additional observations from a re-analysis of the deposited data

How the results depend on the processing

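The 8 called chemokine genes kept a positive direction in all 17 alternatives, a sign that groups which do not overlap largely fix. The number called was 8 over all libraries. It was the same 8 genes under the 3 other scalings, with at least 1 CPM in 3 libraries and with DESeq2, which added Cxcr6. It was 5 with limma-voom, 5 with limma on log2(FPKM + 1) and 14 with no filter on low counts. When 1 library was left out it was 0 to 7, the 0 without GFP replicate 2. Without Caspase3 replicate 1 and GFP replicate 3 together it was 6. Not all of these calls were among the 8 genes. The 7 without Caspase3 replicate 3 were 6 of the 8 and Ccl2. Without Caspase3 replicate 1, alone or together with GFP replicate 3, the 6 were 5 of the 8 and Ackr2. The median log2 fold changes became 0.22 for ligands and 0.16 for receptors on log2(FPKM + 1), a scale that understates the change of low genes. The receptor signalling list gave 9 calls with DESeq2, 1 with limma at either pseudocount, 13 with no filter, 1 without Caspase3 replicate 1 and GFP replicate 3, and 0 to 4 with 1 library left out. The list of inducers gave 12 with no filter and 0 to 7 with 1 library left out, and the processing list 1 with DESeq2 and 3 with no filter. Where a setting moved a count, the cause was not tested. All-gene calls, 255 higher and 19 lower, were 397 and 98 with DESeq2, 663 and 250 with no filter, 160 and 10 on log2(FPKM + 1), 131 and 13 without GFP replicate 3 and 15 and 2 without GFP replicate 2. Lower calls were 33 without Caspase3 replicate 1 and 7 without Caspase3 replicate 3.

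The sample numbers in the titles are shared by the groups but were not taken as pairs, since the titles do not state a pairing. Same-numbered libraries deviated together with correlations of 0.0648, 0.178 and 0.0273. Caspase3 replicate 1 correlated best with GFP replicate 3 (0.0794), and Caspase3 replicates 2 and 3 with the GFP library of the same number. The other correlations between different numbers were -0.142 to -0.00769. Whether the numbers pair the libraries is thus not known. With the number as a block, the same 8 chemokine genes were called, the signalling list gave 7 calls in place of 3, and 378 genes were higher and 43 lower.

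Depth limits the 28 chemokine genes below the filter and the 7 without a count, for which 3 counts in a library are 0.118 to 0.142 CPM.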

Other observations

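Cxcl11, the remaining ligand of Cxcr3, is annotated as a polymorphic pseudogene and is therefore not among the 59 genes. It held 9, 13 and 13 counts in the Caspase3 libraries against 2, 1 and 1 in the GFP libraries, or 0.426, 0.590 and 0.512 CPM against 0.0931, 0.0395 and 0.0439 CPM. It was below the filter, and its lowest Caspase3 library was replicate 1, where that of Cxcl9 and Cxcl10 was replicate 3.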
